A study of Mus musculus with 8 samples.

Results

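The genes of the constitutive proteasome, the protein-degrading complex present in all cells, were followed in mouse regulatory T cells (Tregs) exposed to BMS309403, a small molecule applied in this study to inhibit FABP5, a fatty acid-binding protein. Members were the protein-coding genes whose symbols begin with Psma, Psmb, Psmc or Psmd and end in a number with or without letters. The inducible subunits Psmb8, Psmb9 and Psmb10 and all pseudogenes were left out, and a gene needed at least 80 counts summed over the 8 libraries. This gave 36 of the 53465 gene IDs in the files. Of these, 32 encode subunits, 15 of the 20S core and 17 of the 19S particle. The chaperones Psmd5, Psmd9 and Psmd10 help to assemble the 19S base without staying in the finished complex. The last, Psmc3ip, shares the name pattern but encodes a protein of meiotic recombination that was first found as a partner of Psmc3. The threshold separated Psma8, with 84 summed counts, from Psmb11, with 0, and the next gene above was Psmc3ip with 2760.

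RNA was sequenced from 4 libraries of cells kept with 50 µM BMS309403 and 4 of control cells kept without it. In both groups, CD4+ T cells of wild-type C57BL/6 mice were taken by positive selection from spleen and peripheral lymph nodes, and the tissue label names the spleen alone. They were grown for 72 h with plate-bound anti-CD3 at 5 µg/mL and soluble anti-CD28 at 0.5 µg/mL. The cytokines were 5 ng/mL of TGF-β and 100 U/mL of IL-2, and IL-4, IL-12 and IFN-γ were each neutralized by antibody at 10 µg/mL. The cultures were then divided between the groups. The labels give neither the age of the mice, nor a vehicle, nor the length of the exposure, so that effects of the compound and of a solvent cannot be told apart. Nor do they state that the replicates are different mice or cultures. P-values therefore reflect the spread among these libraries alone, and that spread could be technical. Because the starting cells were total CD4+ T cells, the cultures may hold other CD4+ T cells beside Tregs.

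The proteasome degrades proteins tagged with ubiquitin. Its 20S core is a barrel of alpha rings, which gate the entrance, around beta rings, of which Psmb5, Psmb6 and Psmb7 carry the active sites. The 19S particle caps the barrel: its ATPases unfold substrates, its scaffold and receptors hold ubiquitin chains, and its lid removes ubiquitin. In lymphocytes, interferon-induced subunits can take the place of the 3 active ones and form the immunoproteasome, which favours peptides for presentation on MHC class I.

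Total counts lay between 38.7 M and 42.6 M in BMS309403 libraries and between 32.9 M and 44.6 M in control libraries, with control replicate 1 the lowest. The 7 Treg markers summed to 5698 to 6056 CPM (counts per 1 M counts, scaled for library composition) in BMS309403 libraries and 4344 to 5011 CPM in control libraries. None of the 7 was at 0, and they did not move alike. Il2ra, with 3204 to 3691 CPM in BMS309403 libraries and 2355 to 3007 CPM in control libraries, made up most of the sum. Foxp3, the defining Treg factor, had 1234 to 1261 CPM in BMS309403 libraries and 900.6 to 1029 CPM in control libraries. Nrp1 went the other way, with 74.2 to 87.7 CPM in BMS309403 libraries and 146 to 160.3 CPM in control libraries, and Ctla4 overlapped between the groups. The 4 markers of CD4+ T cells summed to 1321 to 1441 CPM in BMS309403 libraries and 1485 to 1617 CPM in control libraries. Cd4 itself overlapped, with 557.1 to 588.4 CPM in BMS309403 libraries and 540 to 640.5 CPM in control libraries. Cd3e, Cd3g and Trac were lower in BMS309403 libraries without overlap. The 2 CD8+ T cell markers summed to 10.2 to 14.9 CPM in BMS309403 libraries and 9.89 to 14.3 CPM in control libraries. The 4 B cell markers summed to 4.42 to 6.62 CPM in BMS309403 libraries and 5.26 to 7.76 CPM in control libraries. The 5 myeloid markers summed to 0.835 to 3.13 CPM in BMS309403 libraries and 1.87 to 3.42 CPM in control libraries, and the 4 dendritic cell markers to 0.264 to 0.75 CPM in BMS309403 libraries and 0.549 to 0.803 CPM in control libraries. The 3 NK cell markers summed to 2.58 to 5.06 CPM in BMS309403 libraries and 1.25 to 2.82 CPM in control libraries, nearly all of it from Eomes, with Ncr1 at 0. Of 3 erythroid markers, Hbb-bs and Hba-a2 were at 0, and the sum was at most 0.341 CPM. The part of these shifts in the results was not tested. In bulk RNA, fewer cells of a type and less RNA per cell cannot be told apart.

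More proteasome genes were lower than higher with BMS309403, by small amounts. Of the 35 members tested, 13 fell and 0 rose at an adjusted p under 0.05 by edgeR's quasi-likelihood test. The called members were 37.1% of the tested members, all lower, against 36.8% of the 14443 genes tested, 18.1% lower and 18.7% higher. The share called in either direction was thus near that of all genes, while every called member was lower. At an unadjusted p under 0.05, 20 members were lower and 1 was higher, against 22.8% of all tested genes lower and 23.6% higher at that threshold. DESeq2 called 14 lower and 0 higher, and limma-voom called 13 lower and 0 higher. The fitted log2 fold change was below 0 in 30 of 35 members (85.7%), against 49.0% of all tested genes. Its median was -0.15 over the members and 0.007 over all tested genes. The changes were small, since the 13 called changes lay between -18.3% and -9.83%, and 31.2% of all tested genes had a larger absolute change than any member. That share covers genes of all levels and was not matched to the levels of the members.

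The replicate numbers in the titles recur in both groups, and same-numbered libraries deviated together, with correlations from 0.106 to 0.384. BMS309403 replicate 2, however, correlated more with control replicate 4 (0.208) than with control replicate 2 (0.145), and no label states a pairing. With the number as a block, edgeR called 25 members lower and 1 higher (Psmc5), against 52.4% of all tested genes, 25.8% lower and 26.6% higher. Members were lower in the BMS309403 library than in its same-numbered control in 33, 32, 26 and 26 of 35 cases for numbers 1 to 4, against 49.8%, 49.1%, 48.8% and 48.4% of all tested genes. In all 4 pairs 24 members (68.6%) were lower, against 29.0% of all tested genes. Members varied together between libraries, as described below. These counts, and that of fitted changes below 0, therefore do not rest on separate observations. Without the block, the count of members called lower depended on single libraries. Leaving out BMS309403 replicates 1 to 4 in turn gave 20, 7, 11 and 7 members lower. Leaving out control replicates 1 to 4 in turn gave 9, 9, 8 and 21, and the first of these also made Psmc5 a called rise. The falls of Psma6, Psmb2, Psmc1, Psmc6, Psmd8, Psmd13 and Psmd10 were called in every alternative run.

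**Figure D1:**
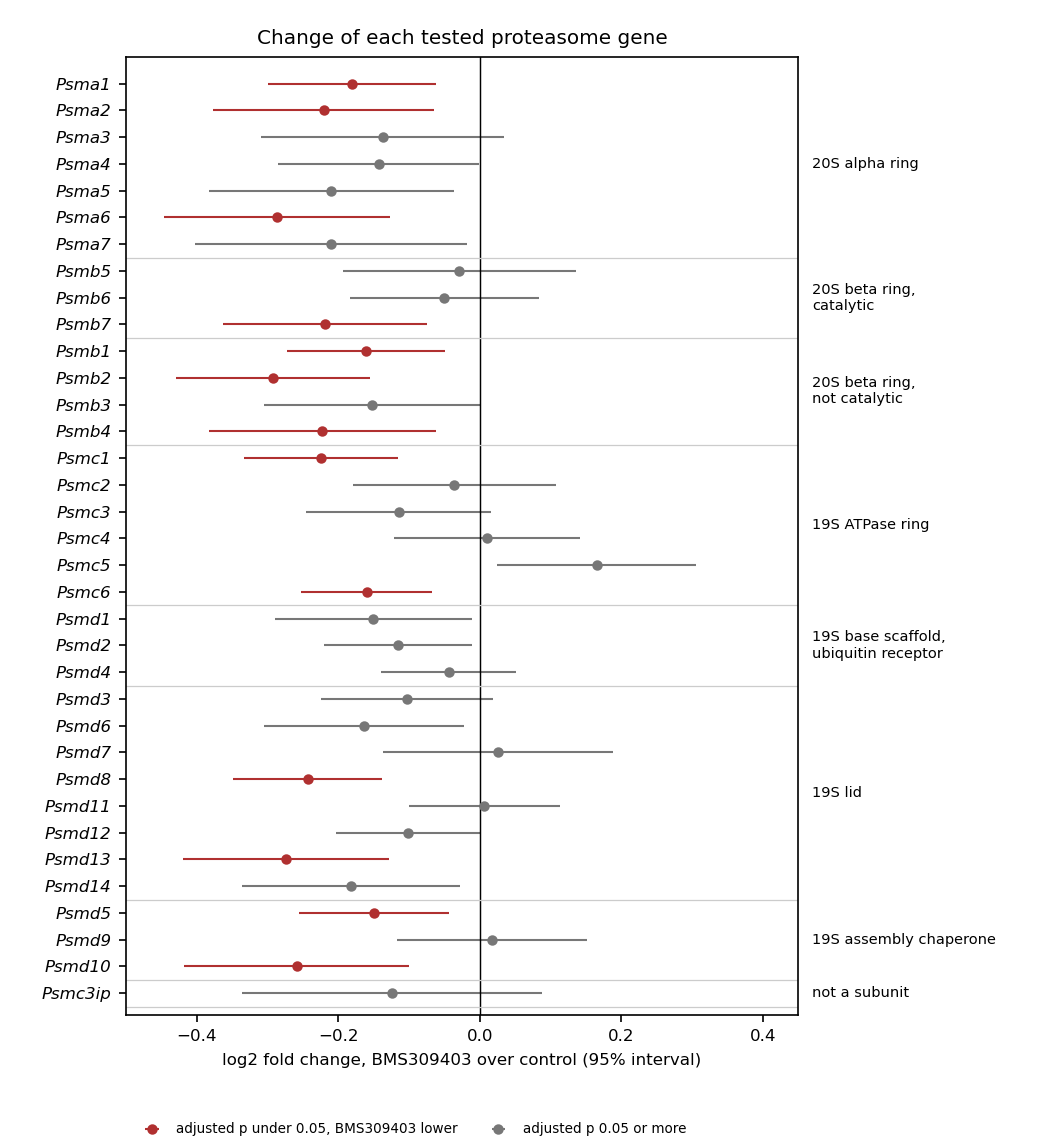
Fitted log2 fold change (BMS309403 over control) of the 35 tested members with its 95% interval, grouped by role, with called falls in red and members that were not called in grey. Of the 35 points, 30 lie left of 0, and Psmc5 is the one member whose interval lies wholly to the right.

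The members varied together between libraries of the same group. In control replicate 1 all 35 tested members were above the control mean, and in control replicate 4 there were 0. BMS309403 replicates 1 and 3 had 33 and 28 members above the BMS309403 mean, while replicates 2 and 4 had 3 and 2. The median deviation of the members from their group mean was 0.095, -0.073, 0.022 and -0.060 on the log2 scale in BMS309403 replicates 1 to 4. In control replicates 1 to 4 it was 0.155, -0.032, 0.0002 and -0.132. The spread between control replicates 1 and 4 was thus larger than the median difference between the groups. Members together held 0.486% ± 0.0201 of all counts in BMS309403 libraries and 0.530% ± 0.0351 in control libraries (SD, n = 4 each). The median coefficient of variation per member was 6.01% in BMS309403 libraries and 8.62% in control libraries.

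**Figure D2:**
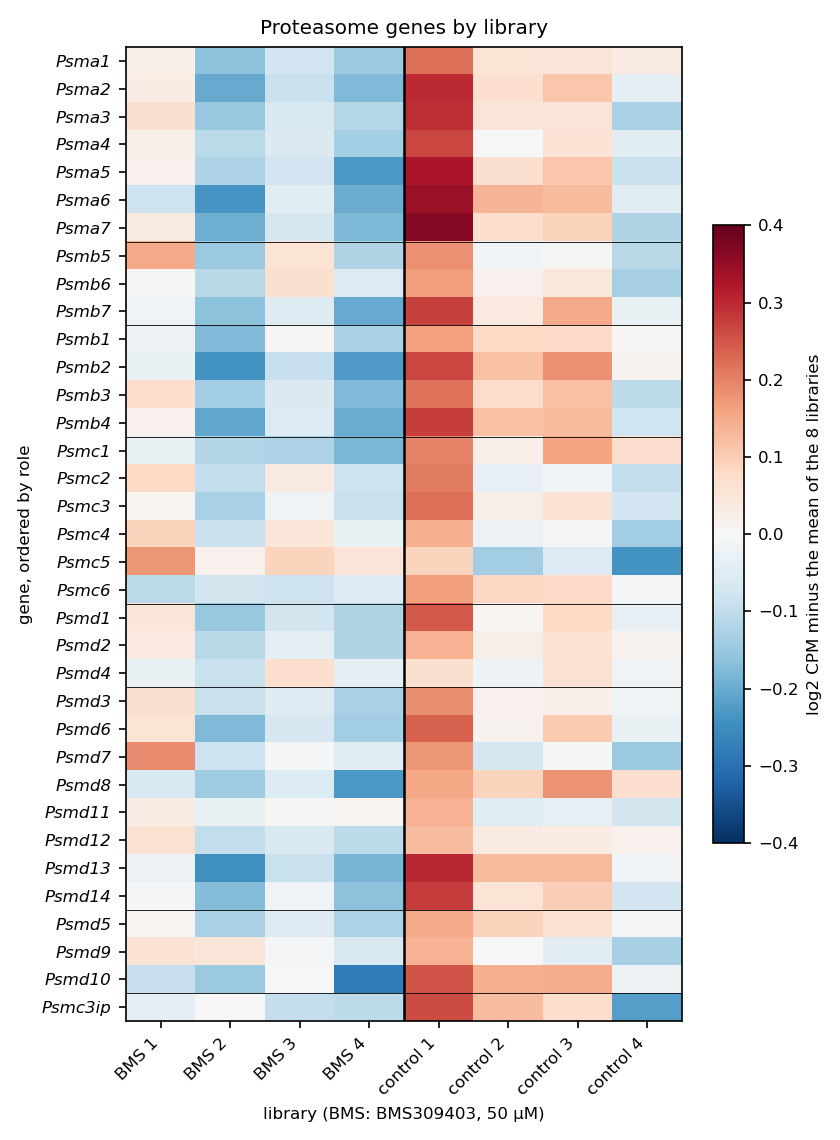
Log2 CPM of each tested member in each library minus its mean over the 8 libraries, with BMS309403 libraries left of the line and control libraries right of it. Columns shade together, darkest red in control 1, and values run from -0.283 to 0.364.

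Levels were compared between genes as reads per kilobase of the principal transcript and per 1 M reads (RPKM). The median level of the 14 tested 20S genes was 126.3 RPKM in BMS309403 libraries and 146.2 RPKM in control libraries. That of the 17 genes of the 19S particle was 86.9 RPKM in BMS309403 libraries and 85.2 RPKM in control libraries. The direction of this median depends on the length chosen, since with the union of exons it was 41.6 RPKM in BMS309403 libraries and 46.2 RPKM in control libraries, and 13 of the 17 genes had a log2 fold change below 0. The highest level was that of Psma7, an alpha subunit, at 177 ± 13.4 RPKM in BMS309403 libraries and 205 ± 28.9 RPKM in control libraries (SD, n = 4 each). The chaperones lay far below the subunits, between 10.5 and 15.6 RPKM in BMS309403 libraries and between 10.4 and 18.7 RPKM in control libraries. Psmc3ip had 6.56 ± 0.227 RPKM in BMS309403 libraries and 7.16 ± 0.970 RPKM in control libraries (SD, n = 4 each). Psma8, the alpha subunit of testis proteasomes, was near absent at 0.280 ± 0.113 CPM in BMS309403 libraries and 0.252 ± 0.0718 CPM in control libraries (SD, n = 4 each) and was not tested. With the union of all annotated exons as length, the order changed in part (Spearman's rho 0.779 over the 35 genes, which share libraries).

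**Figure D3:**
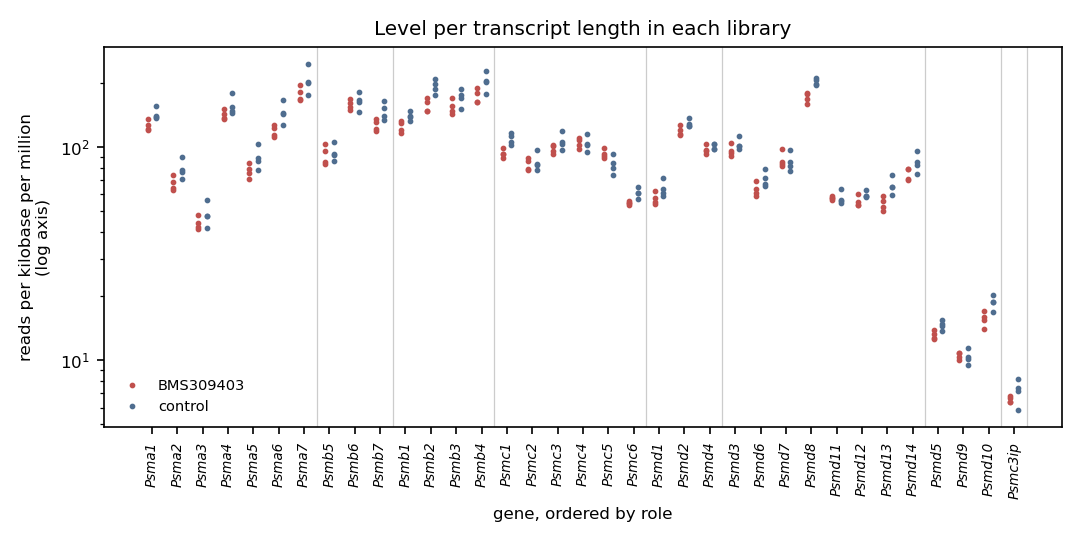
Level of each tested member in RPKM by principal transcript (log axis), with 1 point per library, BMS309403 in red to the left of control in blue. The 20S and 19S genes lie mostly between 43.8 and 205 RPKM, and the 3 chaperones and Psmc3ip have means of at most 18.7 RPKM.

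Promoters of 5 members and of an inducible subunit are shown to set genes that fell beside genes that did not. Sequences are RefSeq's (GRCm38.p6) and run 5′ to 3′ on the strand of the gene, from 180 bases before the annotated start to 20 after it. Psmd13 and Psmd8 are lid genes that fell, Psmb5 and Psmb6 are active-site genes that were not called, Psmc5 is the member with the highest fold change, and Psmb9 is the inducible counterpart of Psmb6. They lie at chr7:140882214-140882413 on the plus strand (Psmd13), chr14:54617976-54618175 on the minus strand (Psmb5), chr11:70525177-70525376 on the plus strand (Psmb6), chr11:106256005-106256204 on the plus strand (Psmc5), chr7:29180654-29180853 on the minus strand (Psmd8) and chr17:34187311-34187510 on the minus strand (Psmb9). Capitals mark an antioxidant response element, the site bound by NRF1 and NRF2 with small Maf proteins (TGACNNNGC or TGAGNNNGC, both strands), or a CCAAT box, the site of NF-Y (CCAAT, both strands).
Psmd13: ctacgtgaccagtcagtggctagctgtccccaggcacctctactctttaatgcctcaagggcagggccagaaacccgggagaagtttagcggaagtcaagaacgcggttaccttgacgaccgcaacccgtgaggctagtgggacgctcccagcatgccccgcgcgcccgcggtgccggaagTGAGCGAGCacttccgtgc
Psmb5: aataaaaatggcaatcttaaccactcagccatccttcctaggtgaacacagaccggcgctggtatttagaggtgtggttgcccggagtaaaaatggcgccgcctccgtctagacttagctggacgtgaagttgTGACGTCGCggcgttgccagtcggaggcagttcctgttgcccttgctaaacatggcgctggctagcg
Psmb6: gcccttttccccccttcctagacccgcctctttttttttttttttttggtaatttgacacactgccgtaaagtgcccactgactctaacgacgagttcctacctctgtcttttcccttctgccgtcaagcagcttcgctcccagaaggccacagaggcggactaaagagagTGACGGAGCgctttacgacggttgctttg
Psmc5: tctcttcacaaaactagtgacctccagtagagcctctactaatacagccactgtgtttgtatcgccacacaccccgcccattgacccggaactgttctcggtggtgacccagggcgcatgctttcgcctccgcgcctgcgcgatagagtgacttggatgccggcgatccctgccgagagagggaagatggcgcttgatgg
Psmd8: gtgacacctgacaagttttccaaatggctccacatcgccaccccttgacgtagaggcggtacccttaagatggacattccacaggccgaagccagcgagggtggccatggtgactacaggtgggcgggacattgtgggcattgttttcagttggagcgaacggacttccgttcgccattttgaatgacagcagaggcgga
Psmb9: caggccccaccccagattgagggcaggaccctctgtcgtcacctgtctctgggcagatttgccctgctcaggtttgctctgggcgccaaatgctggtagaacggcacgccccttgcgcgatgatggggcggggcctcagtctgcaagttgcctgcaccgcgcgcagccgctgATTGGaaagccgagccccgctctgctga

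The capitals of Psmd13, Psmb5 and Psmb6 are antioxidant response elements, those of Psmb9 are a CCAAT box on the opposite strand, and the windows of Psmc5 and Psmd8 hold neither. RefSeq promoters of 250 bases before and 50 after the start were found for 29 of the 36 members, 31 in all. The antioxidant response element occurred in 16 of the 31 (51.6%), against 27.9% of 32544 distinct promoters. Of the 10 called members with a promoter, 4 held it, Psmd13, Psma6, Psmc6 and Psmd5. The CCAAT box occurred in 12 of the 31 (38.7%), against 37.4% of all promoters, and in 5 of the 10 called members. The ATF4 element TGATGNAA was in the promoter of Psmd13 alone (3.23%, against 3.91% of all), and the heat shock element GAANNTTC in that of Psmb5 alone (3.23%, against 7.89%). The interferon motifs were chosen after values were seen: the STAT element TTCNNNGAA was in the promoter of Psmd2 alone (3.23%, against 8.33% of all), and the interferon-stimulated response element, searched as a pair of GAAA runs with 2 bases between them, in those of Psmb3, Psmd4 and Psmd9 (9.68%, against 3.45%). All motifs were searched on both strands, the heat shock and STAT letters read the same on either, and a match describes letters, not binding.

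All 14 tested genes of the 20S core had a log2 fold change below 0, with a median of -0.20, and 7 fell. With the replicate block 12 fell. Of all tested genes, 49.0% had a log2 fold change below 0, 18.1% fell, and 25.8% fell with the block. These shares also stand beside the counts by role below. Of the 7 alpha ring genes tested, 3 fell, and the median was -0.21. Their summed level was 1102, 966, 1037 and 969 CPM in BMS309403 libraries, against 1340.0, 1135, 1154 and 1045 CPM in control libraries. The groups overlapped, since BMS309403 replicate 1 lay above control replicate 4.

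Psma6, the alpha gene with the largest fall, had 129, 116, 132 and 119 CPM in BMS309403 libraries, against 173, 149.8, 149 and 132 CPM in control libraries. Every BMS309403 library lay below every control library, although BMS309403 replicate 3 and control replicate 4 were close. It fell by 18.0% (log2 fold change -0.29 ± 0.073 (SE), adjusted p = 0.0096). Psma1 (-0.18, adjusted p = 0.0225) and Psma2 (-0.22, adjusted p = 0.0311) also fell. Psma1 lost its call without BMS309403 replicate 2 or 4, with an adjusted p of up to 0.0755. Psma2 lost it without BMS309403 replicate 2, 3 or 4 or control replicate 1, 2 or 3, with an adjusted p of up to 0.0946. Psma3, Psma4, Psma5 and Psma7 had log2 fold changes between -0.21 and -0.14 and adjusted p-values between 0.0571 and 0.192. All 7 alpha genes were called lower with the replicate block.

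Of the 3 active-site subunits, 1 fell, against 18.1% of all tested genes, and no difference between them was tested. Psmb7, the trypsin-like subunit, had 157, 141, 153 and 137 CPM in BMS309403 libraries, against 191, 162, 176 and 155 CPM in control libraries. The groups overlapped through BMS309403 replicate 1 and control replicate 4. It fell by 14.1% (log2 fold change -0.22 ± 0.066 (SE), adjusted p = 0.0220), and lost its call without BMS309403 replicate 2 or 4 or control replicate 3 (adjusted p of up to 0.069). Exons of Psmb7 overlap those of Nek6 on the opposite strand, and the strand setting of the counting is not stated.

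Psmb5, the chymotrypsin-like subunit, had 92.6, 75.2, 86.6 and 76.7 CPM in BMS309403 libraries, against 94.5, 82.6, 83.6 and 77.1 CPM in control libraries. The groups overlapped over most of their range, and the difference was -1.99% (95% interval -12.5% to 9.84%, adjusted p = 0.790). Its sign changed without BMS309403 replicate 2 or 4 or control replicate 1, where the log2 fold change was between 0.00645 and 0.028. Psmb6, the caspase-like subunit, had 128, 119, 134 and 123 CPM in BMS309403 libraries, against 144, 129.6, 132 and 117 CPM in control libraries. These groups also overlapped, and the difference was -3.41% (95% interval -12.0% to 5.96%, adjusted p = 0.554). Psmb5 and Psmb6 were not called with the replicate block either.

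Of the 4 beta ring genes without active sites, 3 fell, against 18.1% of all tested genes, and the median was -0.19. Psmb2 had the largest fall of any member. It had 146, 126, 139.7 and 127 CPM in BMS309403 libraries, against 179, 162, 169 and 150.2 CPM in control libraries, and the groups did not overlap. It fell by 18.3% (log2 fold change -0.29 ± 0.063 (SE), adjusted p = 0.0036). Psmb4 (-0.22, adjusted p = 0.0333) and Psmb1 (-0.16, adjusted p = 0.0288) fell too. Both lost their calls without BMS309403 replicate 2 or 4 or control replicate 1, 2 or 3, with adjusted p-values of up to 0.0998. Psmb3 was not called (-0.15, adjusted p = 0.1105), and with the replicate block all 4 were called lower.

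In the 19S particle, 4 of 17 genes fell, the median was -0.11, and with the replicate block 11 were called lower and 1 higher. Of all tested genes, 18.1% fell without the block, and with it 25.8% fell and 26.6% rose. The 6 ATPases, which form the ring that unfolds substrates and threads them into the core, gave 2 falls, and the fitted changes ran from -0.22 to 0.17. Psmc1 had 158, 148, 148 and 141 CPM in BMS309403 libraries, against 184, 163, 179 and 168 CPM in control libraries, with no overlap. It fell by 14.4% (log2 fold change -0.22 ± 0.050 (SE), adjusted p = 0.0042). Psmc6 fell by 10.5% (-0.16, adjusted p = 0.0119), with no overlap between the groups and the narrowest spread among BMS309403 libraries of any member, a coefficient of variation of 1.60%.

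Psmc5, an ATPase of the same ring, was higher with BMS309403 without passing the threshold. It had 129.9, 116, 122 and 119 CPM in BMS309403 libraries, against 122, 105, 111 and 97.5 CPM in control libraries. The groups overlapped through control replicate 1, and the BMS309403 library was the higher in all 4 same-numbered pairs. The difference was 12.1% (log2 fold change 0.17 ± 0.064 (SE), 95% interval 1.75% to 23.6%, adjusted p = 0.0628). It was called higher with the replicate block (adjusted p = 0.00081), without control replicate 1 (adjusted p = 0.0042), with scaling by total counts and with no filter on low counts. Psmc2, Psmc3 and Psmc4 were not called, with log2 fold changes of -0.04, -0.11 and 0.01 and adjusted p-values of 0.702, 0.156 and 0.905. Exons of Psmc3 overlap those of Slc39a13 on the opposite strand, so that its counts are uncertain.

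The scaffold genes Psmd1 and Psmd2 and the ubiquitin receptor Psmd4 of the 19S base gave no call. Psmd1, with the largest difference of the 3, had 194, 169, 179 and 173 CPM in BMS309403 libraries, against 222, 189, 198 and 183 CPM in control libraries. The groups overlapped, and the log2 fold change was -0.15 ± 0.064 (SE, adjusted p = 0.0845). Psmd2, which held the most counts of any member, had 352 ± 18.5 CPM in BMS309403 libraries and 382 ± 15.1 CPM in control libraries (SD, n = 4 each), with an adjusted p of 0.0789 by edgeR. Psmd4 had a log2 fold change of -0.04 (adjusted p = 0.464). With the replicate block Psmd1 and Psmd2 were called lower.

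Of the 8 lid genes, Psmd8 and Psmd13 fell, against a share of 18.1% of all tested genes. Psmd13 had 117, 100.0, 111 and 104 CPM in BMS309403 libraries, against 146, 129.6, 129 and 118 CPM in control libraries. The groups did not overlap, although BMS309403 replicate 1 and control replicate 4 nearly met. It fell by 17.3% (log2 fold change -0.27 ± 0.067 (SE), adjusted p = 0.0072), and its exons overlap those of Sirt3 on the opposite strand. Psmd8 had 271, 257, 273 and 242 CPM in BMS309403 libraries, against 315, 302, 321 and 297 CPM in control libraries. All BMS309403 libraries lay below all control libraries, with a wider gap than in Psmd13. It fell by 15.5% (log2 fold change -0.24 ± 0.048 (SE)) and had the lowest adjusted p of any member, 0.0021.

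The lid's deubiquitinating enzyme, Psmd14, had 115 ± 7.28 CPM in BMS309403 libraries and 130.3 ± 13.5 CPM in control libraries (SD, n = 4 each), which was not called by edgeR (adjusted p = 0.0621). Psmd7, the catalytically inactive partner of Psmd14, was not called at a log2 fold change of 0.03 (adjusted p = 0.814), with a 95% interval from -9.03% to 13.9%. Psmd11, a lid scaffold subunit, was not called at 0.01 (adjusted p = 0.927), with an interval from -6.67% to 8.14%, and its sign turned with RLE size factors and in DESeq2. The remaining lid genes Psmd3, Psmd6 and Psmd12 had log2 fold changes between -0.16 and -0.10 and adjusted p-values between 0.0681 and 0.171. With the replicate block 6 of the 8 lid genes were called lower, all but Psmd7 and Psmd11, against 25.8% of all tested genes.

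Of the 3 chaperones of the 19S base, 2 fell, against 18.1% of all tested genes. Psmd10, also known as gankyrin, had 22.845, 21.967, 24.363 and 19.998 CPM in BMS309403 libraries, against 28.968, 26.834, 26.949 and 24.002 CPM in control libraries. The groups overlapped through BMS309403 replicate 3 and control replicate 4. It fell by 16.4% (log2 fold change -0.26 ± 0.073 (SE), adjusted p = 0.0158). Psmd5 fell by 9.83% (-0.15, adjusted p = 0.0313) and lost its call with no filter on low counts and without BMS309403 replicate 2, 3 or 4 or control replicate 1, 2 or 3 (adjusted p of up to 0.0974). Psmd9 was not called (0.02, adjusted p = 0.853). Psmc3ip, which is no proteasome gene by function, had 8.60, 8.81, 8.25 and 8.20 CPM in BMS309403 libraries, against 10.6, 9.60, 9.25 and 7.56 CPM in control libraries, with overlap and no call (-0.12, adjusted p = 0.344). Its exons overlap those of Mlx on the opposite strand.

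Groups that did not overlap were found for 7 members, all lower with BMS309403: Psma1, Psma6, Psmb2, Psmc1, Psmc6, Psmd8 and Psmd13. That is 20% of the tested members, against 33.8% of all tested genes without overlap, 16.1% lower and 17.7% higher. No member was higher without overlap.

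**Figure D4:**
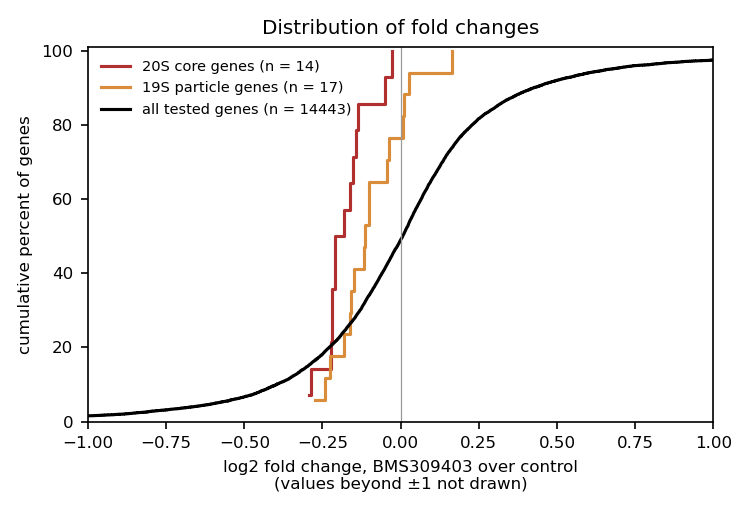
Cumulative percent of genes by fitted log2 fold change (BMS309403 over control), for 14 genes of the 20S core, 17 of the 19S particle and all 14443 tested genes. The steps of the 20S core end left of 0, and the medians are -0.20, -0.11 and 0.007.

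None of the inducible counterparts was called lower. Of the 5 genes of the immunoproteasome and its activator PA28, 2 rose and 0 fell, and 4 rose with the replicate block. Among all tested genes 18.7% rose and 18.1% fell, and 26.6% rose with the block. Psmb9, which takes the place of Psmb6, had 277, 271, 280.3 and 271 CPM in BMS309403 libraries, against 255, 241, 239 and 235 CPM in control libraries. The groups did not overlap, and it rose by 13.5% (log2 fold change 0.18 ± 0.039 (SE), adjusted p = 0.0036). Psme2, a PA28 subunit with a near-identical copy whose reads could have been split, had 352 ± 18.0 CPM in BMS309403 libraries and 311 ± 13.3 CPM in control libraries (SD, n = 4 each). It rose by 13.2% (adjusted p = 0.0127). Psmb10, the counterpart of Psmb7, was 11.3% higher without passing the threshold (adjusted p = 0.0681), and was called with the block, with total counts only, with no filter on low counts or without control replicate 1 (adjusted p = 0.0025). Psme1, the other PA28 subunit, had an adjusted p of 0.184 (log2 fold change 0.09). Psmb8, the counterpart of Psmb5, had 519 ± 28.8 CPM in BMS309403 libraries and 534 ± 34.5 CPM in control libraries (SD, n = 4 each) and was not called by edgeR (adjusted p = 0.602).

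The ratio of each inducible subunit to the constitutive subunit it replaces was taken from counts within each library, so that library size cancels. The ratio of Psmb10 to Psmb7 was 0.686, 0.691, 0.664 and 0.696 in BMS309403 libraries, against 0.534, 0.530, 0.505 and 0.545 in control libraries. The groups did not overlap, and the log2 ratio was higher by 0.37 with BMS309403 (exact permutation test, two-sided, p = 0.0286, the smallest that 4 against 4 allows, adjusted over the 3 ratios 0.0429). The ratio of Psmb9 to Psmb6 was 2.16, 2.29, 2.10 and 2.20 in BMS309403 libraries, against 1.77, 1.86, 1.81 and 2.01 in control libraries. Again the groups did not overlap, and the log2 ratio was higher by 0.23 (exact permutation test, p = 0.0286, adjusted 0.0429).

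The ratio of Psmb8 to Psmb5 was 5.96, 6.56, 6.19 and 6.48 in BMS309403 libraries, against 6.15, 6.46, 6.25 and 6.48 in control libraries. These groups overlapped throughout, with a log2 difference of -0.01 (exact permutation test, p = 0.914). Within same-numbered pairs, a sign-flip test of 4 pairs cannot go below 0.125, and the adjusted p of the Psmb9 and Psmb10 ratios was 0.188 (exact). Without any BMS309403 replicate their adjusted p was 0.0857 (exact), and without any control replicate 0.0429 (exact). The log2 differences stayed between 0.21 and 0.27 for Psmb9 to Psmb6 and between 0.35 and 0.39 for Psmb10 to Psmb7 when libraries were left out in turn.

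**Figure D5:**
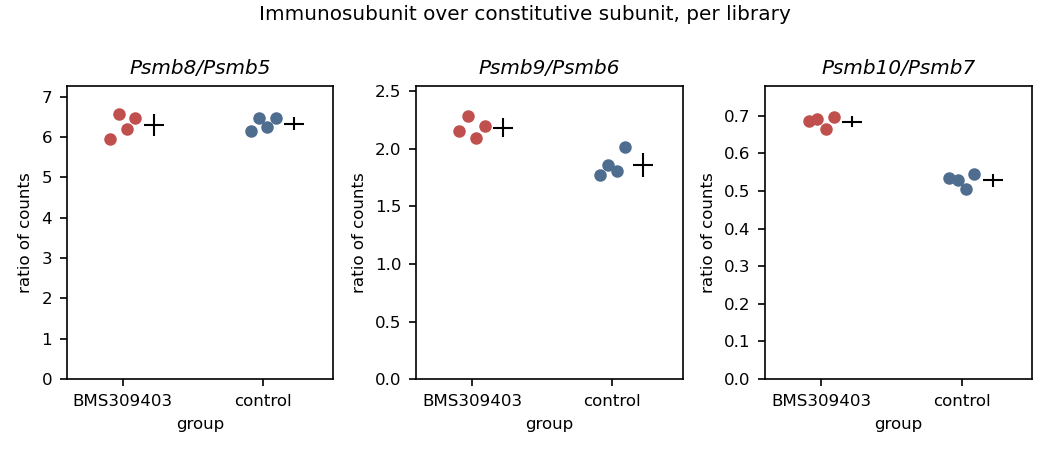
Ratio of counts of each inducible subunit to its constitutive counterpart, with 1 point per library and the mean ± SD (n = 4) beside the points. BMS309403 libraries lie above control libraries for Psmb9/Psmb6 and Psmb10/Psmb7 and among them for Psmb8/Psmb5.

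Other genes of the ubiquitin-proteasome system were described from 9 lists, in which 65 of 66 genes were matched to an ID. Over these lists, which include the immunoproteasome and PA28 genes above, 13 genes rose and 9 fell. Of all tested genes, 18.7% rose and 18.1% fell. With the block 21 list genes rose and 21 fell, against 26.6% and 25.8% of all tested genes. No list was tested against these shares. Among 5 assembly factors, 1 fell. Pomp, the maturation factor of the 20S core, had 113, 94.4, 103 and 94.2 CPM in BMS309403 libraries, against 161, 127, 136 and 116 CPM in control libraries. The groups did not overlap, and it fell by 25.1% (log2 fold change -0.42 ± 0.091 (SE), adjusted p = 0.0038), a larger fitted fall than that of any member. The other 4, Psmg1 to Psmg4, were not called (log2 fold changes between -0.10 and 0.09), and Psmg1 was called lower with the block. The activators and inhibitors Psme3, Psme4 and Psmf1 were not called by edgeR (adjusted p of 0.164 or more), nor with the block.

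Of 12 proteasome-associated proteins and ubiquitin shuttles, 3 rose and 2 fell, against 18.7% and 18.1% of all tested genes. Adrm1, a ubiquitin receptor of the 19S base that also binds the deubiquitinase Uchl5, had 117, 108, 109.8 and 110.3 CPM in BMS309403 libraries, against 101.4, 91.2, 88.4 and 84.7 CPM in control libraries. All BMS309403 libraries were higher, and it rose by 21.7% (log2 fold change 0.28 ± 0.055 (SE), adjusted p = 0.0018). Sem1, a small lid subunit whose symbol lies outside the name pattern, fell by 15.2% (-0.24, adjusted p = 0.0114). Txnl1, a thioredoxin-like protein of the 19S particle (-0.19, adjusted p = 0.0317), fell, and Ube3c, a ubiquitin ligase (0.14, adjusted p = 0.0399), rose. The shuttle gene Ubqln4 (0.11, adjusted p = 0.0456) rose as well. Txnl1 lost its call without BMS309403 replicate 2 or 4 or control replicate 1, 2 or 3, Ube3c without BMS309403 replicate 1, 2 or 3 or control replicate 2, 3 or 4, and Ubqln4 without BMS309403 replicate 1, 3 or 4 or control replicate 2 or 3 (adjusted p-values of up to 0.136). Ube3c and Ubqln4 also lost their calls in DESeq2 (adjusted p = 0.0597 and 0.0581), with RLE size factors (0.0521 and 0.0609) and with no filter on low counts (0.0507 and 0.101), which left Adrm1 as the single called rise of the 12. With the block 4 rose and 5 fell, against 26.6% and 25.8% of all tested genes.

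Genes that encode ubiquitin moved in both directions. Ubb, a polyubiquitin gene, had 427 ± 8.20 CPM in BMS309403 libraries and 372 ± 15.9 CPM in control libraries (SD, n = 4 each) and rose by 14.9% (adjusted p = 0.0030). Rps27a, which encodes ubiquitin fused to a ribosomal protein, fell by 9.94% (adjusted p = 0.0472), and lost its call without BMS309403 replicate 2 or 4 or control replicate 1, 2 or 3 (adjusted p of up to 0.131). These genes share near-identical ubiquitin repeats, and the treatment of reads with several matches is not stated. Both calls were also made with the block.

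Of 10 regulators of proteasome genes, 4 rose and 1 fell, and 6 rose with the block. The shares over all tested genes were 18.7% higher and 18.1% lower, and 26.6% higher with the block. Nfe2l1 encodes NRF1, a membrane-bound transcription factor of the endoplasmic reticulum known to raise proteasome genes when proteasome capacity is short. It had 196, 229, 229 and 243 CPM in BMS309403 libraries, against 137, 144, 151 and 154 CPM in control libraries. The groups were far apart, and it rose by 52.9% (log2 fold change 0.61 ± 0.064 (SE), adjusted p = 1.8e-05). Ngly1, the deglycosylase that activates NRF1, rose by 13.6% (adjusted p = 0.0047), and Mafk, a small Maf partner, by 18.1% (adjusted p = 0.0169). The small Maf genes Maff and Mafg were not called (log2 fold changes of -0.09 and 0.07, adjusted p = 0.280 and 0.291). Nfe2l2, which encodes NRF2, rose by 10.5% (adjusted p = 0.0224). The protease gene Ddi2, which cleaves NRF1, had a log2 fold change of 0.01 (adjusted p = 0.896). Nfyb, a subunit of the CCAAT-binding factor NF-Y, fell by 19.8% (log2 fold change -0.32 ± 0.038 (SE), adjusted p = 5.4e-05), with no overlap between the groups. The NF-Y genes Nfya and Nfyc went the other way without being called (both 0.09, adjusted p = 0.0784 and 0.210). Nfya was higher without overlap between the groups, and both were called higher with the block (adjusted p = 0.0166 and 0.0491). Without control replicate 2 the rise of Mafk was no longer called (adjusted p = 0.0619). Nfe2l2 lost its call without BMS309403 replicate 2, 3 or 4 or control replicate 2 or 3 (adjusted p of up to 0.0696), and with no filter on low counts (adjusted p = 0.0597).

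Of 6 genes of p97, the ATPase that extracts ubiquitinated proteins, and its cofactors, 2 rose and 1 fell, and 4 rose with the block. The shares over all tested genes were 18.7% higher and 18.1% lower, and 26.6% higher with the block. Vcp, which encodes p97, fell by 10.3% with no overlap (adjusted p = 0.0225), and lost its call without BMS309403 replicate 2 or 4 or control replicate 3 (adjusted p of up to 0.0775). The cofactors Ufd1 (0.14, adjusted p = 0.0359) and Faf2 (0.11, adjusted p = 0.0447) rose. Ufd1 lost its call without BMS309403 replicate 2, 3 or 4 or control replicate 2, 3 or 4, and Faf2 without BMS309403 replicate 1, 3 or 4 or control replicate 2, 3 or 4 (adjusted p-values of up to 0.149). Faf2 also lost its call in DESeq2 (adjusted p = 0.0664) and with RLE size factors (0.06). With no filter on low counts both were lost (adjusted p = 0.0595 for Ufd1 and 0.099 for Faf2), and none of the 6 genes was called higher.

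The COP9 signalosome and the CCT chaperonin are multi-subunit complexes, of which the first is related in structure to the 19S lid. Of 10 signalosome genes, 2 fell, with a median of -0.08 and 6 log2 fold changes below 0. For both complexes, the shares over all tested genes were 18.1% called lower and 49.0% with a log2 fold change below 0. Cops9 fell by 22.9% (adjusted p = 0.0098) and Cops5, its catalytic subunit, by 9.03% (adjusted p = 0.0482), the second losing its call without BMS309403 replicate 2, 3 or 4 or control replicate 1, 2 or 3 (adjusted p of up to 0.131). Cops5 also lost it in limma-voom (adjusted p = 0.0509), with total counts only (0.0577) and with no filter on low counts (0.0842). With the block 1 rose and 5 fell, against 26.6% and 25.8% of all tested genes. Of 8 chaperonin genes, Tcp1 fell by 10.4% (adjusted p = 0.0392, lost without BMS309403 replicate 2 or 4 or control replicate 1, 2 or 3, up to 0.12), with a median of -0.08 over the 8, and 5 fell with the block. All 8 had a fitted log2 fold change below 0, as the 20S genes did, with Cct3 at -0.0005. No difference between these complexes and the proteasome genes was tested.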

How the data were processed

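The authors' deposited files hold whole-number counts of reads per Ensembl gene for each library, not normalized. Build GRCm38 and the tools deepTools, DESeq2, featureCounts and STAR are named, per the submitters' processing notes. Versions, strand setting and treatment of multiply matching reads are not given in the sources used here. Libraries were stranded and poly(A)-selected, per the labels' protocols. Groups and replicate numbers came from the titles.

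Symbols and coordinates came from GENCODE M21 (GRCm38). The 105 IDs without a symbol held 0.006312% of counts. All 14443 genes that passed filterByExpr were tested with edgeR 4.0.16 (R 4.3.3, TMM, quasi-likelihood F-test, treatment only, Benjamini-Hochberg over all tested genes, called under 0.05). SEs were derived from the F statistic. Fold changes are fitted values, and CPM use TMM-scaled library sizes. The script was tested on simulated counts in which genes varied independently, unlike the members here, so that shared variation between libraries was not covered. Alternatives were RLE size factors, total counts, DESeq2 1.42.0, limma-voom (limma 3.58.1), no filter on low counts, the replicate number as a block, and each library left out. Same-numbered libraries' deviations correlated across genes at 0.384, 0.145, 0.106 and 0.264, all over 0.1. The replicate number was therefore fitted as a block in an alternative run. The main fit had treatment only, since no label states a pairing. BMS309403 replicate 2 correlated best with control replicate 4 (0.208). Replicates differed beyond sampling noise (chi-square per degree of freedom 3.08 to 24.2), so none was counted as a duplicate.

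Members and lists were chosen with earlier results of these data known. Per-library values were given by rule for the called members with the largest changes, the active-site subunits, the largest change in each role and Psmc3ip. Psmc5, Psmd8 and the promoters shown were picked after their values were seen. Other named genes were the immunoproteasome list, up to 4 called genes per other list, and 5 genes set by name. The remaining list genes are named after their values were seen, and a gene of the lists is not reported here.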

Additional observations from a re-analysis of the deposited data

Results flagged for a closer look

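In each group of 4 libraries, a value was singled out where its gap to the nearest other exceeded Dixon's 95% critical share of the group's range. This was met in 3 of 88 groups examined, and chance alone gives about 1 in 20. Psma1 had 187.252 CPM in control replicate 1, against 164.595 to 167.163 CPM in the other control libraries. Psmd12 had 119.496 CPM in control replicate 1, against 111.027 to 112.011 CPM in the others. In both cases this was the control library in which all 35 tested members were above the control mean. Psma8 had 0.359586 CPM in control replicate 2, against 0.208213 to 0.22455 CPM in the others, at a summed count of 84 over all libraries.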

How the results depend on the processing

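With RLE size factors, limma-voom or DESeq2, all 13 called members were still called. Psmc5 became a called rise, giving 1 higher, with no filter on low counts, with total counts only, with the replicate block and without control replicate 1. With the replicate block the calls came to 1 higher and 25 lower among the members and 21 higher and 21 lower over the 9 lists, against 13 higher and 9 lower without it. Leaving out each library in turn gave 0 to 1 members higher and 7 to 21 lower, 6 to 19 list genes higher and 4 to 10 lower, and 2078 to 2939 of all tested genes higher and 2007 to 2779 lower. The cause was not tested.

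The log2 ratio differences of Psmb9/Psmb6 (0.23) and Psmb10/Psmb7 (0.37) missed the threshold in the pairing by replicate (adjusted p = 0.188, exact), where 4 pairs cannot reach it. With single libraries left out they lay between 0.208 and 0.269 and between 0.351 and 0.388, and that of Psmb8/Psmb5 between -0.0293 and 0.0169.

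Signs turned only in genes that were not called. Psmd11 was at -0.00129 in DESeq2 and -0.000637 with RLE size factors. Uba6 was at 0.000845 with no filter and 0.0147 with total counts. Cct3 was at 0.00381 in limma-voom, 0.00552 with no filter, 0.00402 with the replicate block and 0.0191 with total counts. With single libraries left out Psmb5 lay between -0.0899 and 0.028, Psmc2 lay between -0.0749 and 0.0307, Psmc4 lay between -0.0336 and 0.063, Psmd7 lay between -0.0396 and 0.0919, Psmd11 lay between -0.0177 and 0.0554, Psmd9 lay between -0.0242 and 0.0661, Psmb8 lay between -0.0736 and 0.00156, Psme3 lay between -0.114 and 0.0468, Psmg2 lay between -0.0241 and 0.0834, Uba6 lay between -0.0261 and 0.0125, Ddi2 lay between -0.0301 and 0.0428, Gps1 lay between -0.00153 and 0.0812, Cct3 lay between -0.0515 and 0.087 and Cct6a lay between -0.0833 and 0.061.

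At 84 summed counts, Psma8 was too shallow to test. Replicates of the other members differed by several percent, as large as many of the differences between the groups.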
